A study of Mus musculus with 4 samples.

Results

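The genes described here build cholesterol and fatty acids or control that synthesis, and they were chosen by symbol: 28 genes of the 23420 listed for each heart library. They comprise 17 enzymes of sterol synthesis, 5 genes of the SREBP system, 3 genes of lipoprotein receptor control and sterol efflux, and 3 genes of fatty acid synthesis and desaturation. All 28 were found, 27 under their current symbol and Msmo1 under its older symbol Sc4mol. The libraries hold polyadenylated RNA from 4 hearts labelled wild-type, C57BL/6J, male and 12 weeks of age. The tissue label reads whole heart, while the labels' protocols name frozen ventricular apexes. All libraries belong to 1 group and there is no treatment or control, so the comparisons are between genes within a library and between the libraries. Nothing in the labels states that each library came from a separate animal, and the p-values below measure only the spread between these libraries, which may be technical.

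Cells make cholesterol from acetyl-CoA through mevalonate, squalene and lanosterol. The transcription factors SREBP-1 (gene Srebf1) and SREBP-2 (Srebf2) switch on the genes of this route and of fatty acid synthesis when sterols run low: SCAP carries them out of the endoplasmic reticulum, and the INSIG proteins hold SCAP back when sterols are plentiful. A further set of factors, the liver X receptors, respond to surplus sterol and are known to induce Abca1, Abcg1, Mylip and Srebf1. Heart muscle burns fatty acids as its main fuel and is not a major site of their synthesis.

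Total gene counts per library ran from 10523709 to 15359296, and a count of 0 allows up to 3 counts, worth 0.195 to 0.285 counts per 1000000 gene counts (CPM). Cardiomyocyte markers summed to between 71530 and 82135 CPM, whereas the hepatocyte marker Alb had 0 counts in all 4 libraries. Of the atrial markers, Myl7 and Sln had at most 7 counts in any library, whereas Myl4 had 47, 46, 29 and 37 counts. Libraries 2 and 3 went against the label of sex: Xist had 1897 and 1806 counts there, against 5 and 19 in libraries 1 and 4, and Ddx3y had 0 and 1 against 341 and 437. The numbers of genes called and the variance ratios of the genes with the widest spread are therefore also given without libraries 2 and 3. Mean levels, sums and pair ratios are not. Because these are bulk libraries, fewer cells of a type and less RNA per cell cannot be told apart.

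All 28 transcripts were detected in every library, at modest levels. Per kilobase of exon, 13 of the 27 genes whose mean reached 1 CPM stood above the median of the genes tested, 3.62 CPM per kilobase over 12286 genes with a known length. The 27 covered a 37.4-fold range per kilobase. The highest were Mylip (9.15 ± 1.92 CPM per kilobase, SD, n = 4), Fdft1 (9.11 ± 0.547) and Srebf1 (8.57 ± 1.65), and the lowest Lss (0.291 ± 0.0576) and Msmo1 (0.245 ± 0.0181). Neighbours in that order mostly overlapped between libraries. From the top down to Insig1 (4.57 ± 0.685) no gene was separated from the next by the range over the 4 libraries. The first clear step came below Insig1, above Hsd17b7 (3.39 ± 0.559), and the second below Mvd (2.91 ± 0.638), above Dhcr7 (1.86 ± 0.256). This order and its steps depend on the length used. Divided by the longest transcript instead, Scap led at 12.7 CPM per kilobase and Mylip stood at 9.65. Lss, at 0.449, then lay below Msmo1, at 0.507, and Dhcr7, at 3.85, lay above Mvd, at 2.95. Sqle, the epoxidase that acts on squalene, stood at the foot of the order with 12, 5, 12 and 6 counts in libraries 1 to 4. That is 0.833, 0.359, 1.14 and 0.391 CPM, a mean under 1 CPM, and Sqle was not tested further. The exact Poisson limits of 95% on Sqle in library 3, 0.589 to 1.99 CPM, overlapped those in library 2, 0.117 to 0.838 CPM. These libraries differed 3.17-fold. An overlap of separate limits does not show whether counting error alone gave this difference.

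**Figure D1:**
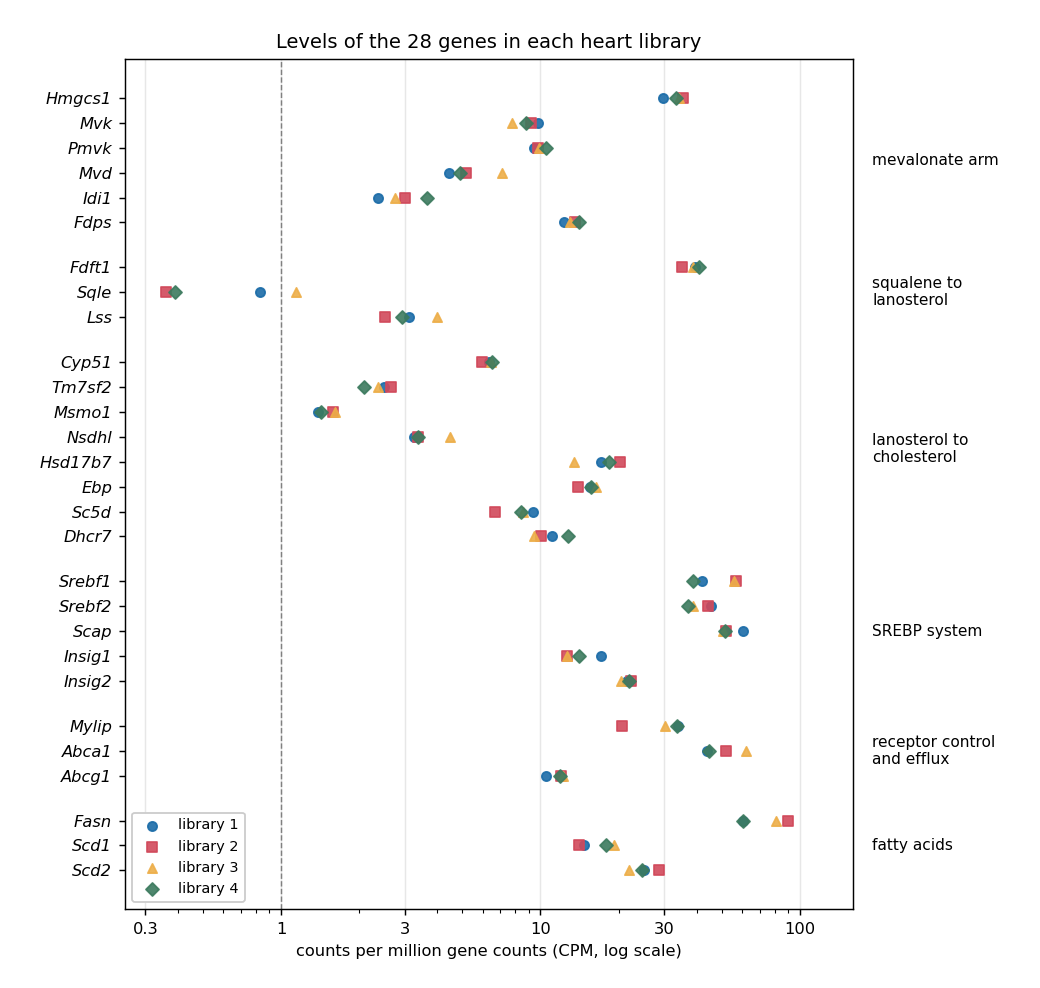
Level of each of the 28 genes in each heart library, in CPM on a log scale, grouped by role; each symbol is 1 library and the dashed line marks 1 CPM. Fasn is the highest by CPM, with 60.6 to 90.4, and Sqle the lowest, with 0.359 to 1.14, the only gene whose mean lies under the line.

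The early enzymes, from HMG-CoA to farnesyl diphosphate, were uneven in level. Hmgcs1, the synthase that makes HMG-CoA (chr13:119690379-119708260), had 29.6, 35.5, 34.2 and 33.4 CPM in libraries 1 to 4. Its neighbours in the route were lower: mevalonate kinase, Mvk, at 8.89 ± 0.838 CPM (SD, n = 4), phosphomevalonate kinase, Pmvk, at 9.91 ± 0.466 CPM, and the decarboxylase Mvd at 4.44, 5.17, 7.13 and 4.88 CPM, highest in library 3. Idi1, the isomerase that makes the reactive allylic unit, had 2.36, 3.02, 2.76 and 3.65 CPM, lowest in library 1 and highest in library 4. Per kilobase Idi1 stood at 0.117 times Hmgcs1, a log2 ratio of -3.10 ± 0.21 (SD, n = 4), and was the lower of the pair in 4 of 4 libraries. Fdps, which makes farnesyl diphosphate, had 12.3, 13.6, 13.02 and 14.1 CPM, a narrow range. In GENCODE M21, 12.1% of the exon bases of Hmgcs1 are shared with an antisense gene, and in libraries without strand such reads cannot be told apart. Of the exon bases of Fdps, 26.7% are shared with a gene on the same strand, Gm43738, so its counts are uncertain too.

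At the branch into sterols, Fdft1, squalene synthase (chr14:63145150-63179578), had 39.4, 35.3, 38.6 and 40.7 CPM. Per kilobase it exceeded Fdps 2.89-fold, between 2.58-fold and 3.19-fold in single libraries, although 18.3% of its exon bases are shared with the neighbouring Ctsb. The steps that follow were far lower. Beside Sqle, lanosterol synthase, Lss, which closes the sterol rings, had 3.14 ± 0.622 CPM (SD, n = 4).

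Of the 8 enzymes that turn lanosterol into cholesterol, Cyp51, the demethylase that acts first, had the lowest coefficient of variation, with 6.31, 5.96, 6.46 and 6.51 CPM. Msmo1, the oxidase of the 4-methyl groups, was low and almost level at 1.39, 1.58, 1.62 and 1.43 CPM. Its partner dehydrogenase Nsdhl had 3.62 ± 0.565 CPM (SD, n = 4), and the sterol reductase Tm7sf2, which shares 12.1% of its exon bases with Vps51 on the same strand, 2.40 ± 0.243 CPM. Hsd17b7, the ketoreductase of the same complex (chr1:169949535-169969241), had 17.1, 20.3, 13.5 and 18.4 CPM, highest in library 2 and lowest in library 3. The isomerase Ebp had 15.4 ± 1.01 CPM, the desaturase Sc5d 8.25 ± 1.13 CPM and the final reductase Dhcr7 10.8 ± 1.49 CPM. Within this arm the mean CPM of Hsd17b7 and Ebp was thus the highest, and that of Msmo1 the lowest. Per kilobase Ebp led, at 6.66 ± 0.438 CPM per kilobase.

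Summed over enzymes, sterol synthesis differed little between the hearts. The 17 enzymes together had 178, 179, 181 and 188 CPM in libraries 1 to 4, 181 ± 4.55 CPM (SD, n = 4). The early arm summed to 73.6 ± 3.80 CPM, the squalene to lanosterol step to 42.3 ± 2.79 CPM and the last arm to 65.6 ± 2.50 CPM. The SREBP system summed to 179 ± 11.3 CPM and receptor control with efflux to 91.9 ± 8.84 CPM. The 3 fatty acid genes had the widest relative spread of these sums, 100.3, 133, 122 and 103 CPM, higher in libraries 2 and 3 than in libraries 1 and 4.

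**Figure D2:**
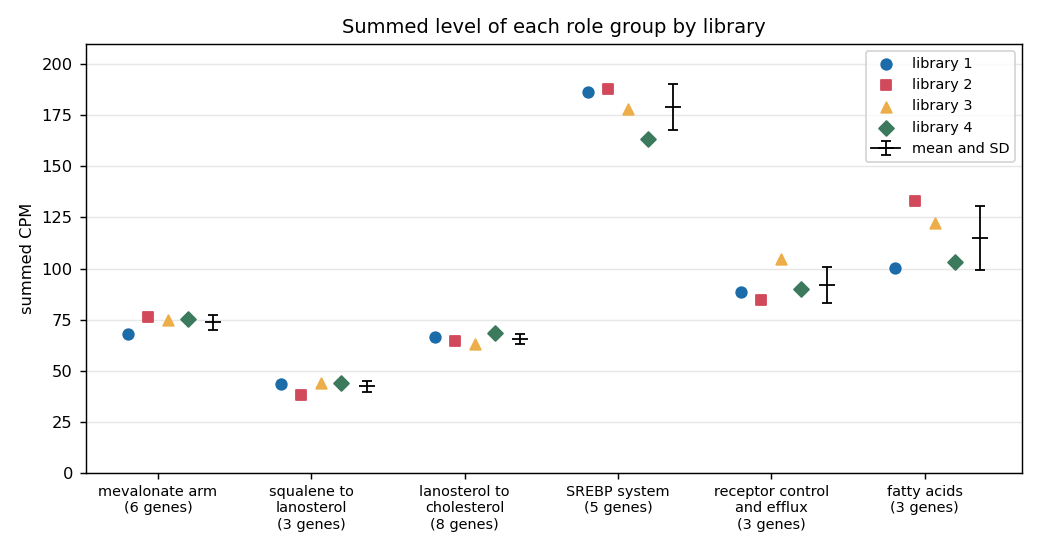
Summed CPM of each role group in each library, with the mean and SD over 4 libraries drawn beside the points. The fatty acid genes run from 100.3 to 133 CPM between libraries, whereas the lanosterol to cholesterol enzymes stay between 62.8 and 68.6 CPM.

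Among the control genes, Scap had the highest mean CPM, with 60.5, 52.0, 50.4 and 51.5 CPM, and 13.2% of its exon bases are shared with an antisense gene. Srebf1 (chr11:60199089-60222581) had 41.9, 56.8, 55.8 and 38.7 CPM, with libraries 2 and 3 above the other two. Srebf2 (chr15:82147181-82205379) had 45.4, 44.3, 38.9 and 37.0 CPM, an order that Srebf1 did not share. Per kilobase Srebf2 stood at 0.679 times Srebf1, between 0.547 and 0.850 times in single libraries and lower in 4 of 4. That order in every library rests on the division by length: counted per read the mean ratio was 0.866, and in library 1 Srebf2 was the higher, at 45.4 against 41.9 CPM. Scap exceeded Srebf2 per kilobase by 1.25-fold, in 4 of 4 libraries.

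Insig1 (chr5:28071363-28078662), itself a textbook target of SREBP, had 17.1, 12.6, 12.6 and 14.1 CPM, highest in library 1. Insig2 (chr1:121304353-121332589), its paralog with the same hold on SCAP, had 21.5, 22.3, 20.4 and 21.9 CPM and the lowest coefficient of variation of the 27 genes, 3.82%. Per kilobase Insig2 exceeded Insig1 by 1.37-fold, in 4 of 4 libraries, from 1.12-fold in library 1 to 1.57-fold in library 2. Counted per read and not per length the excess was 1.53-fold.

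Mylip, the ubiquitin ligase that sends lipoprotein receptors for degradation (chr13:45389742-45412022), had 33.9, 20.6, 30.2 and 33.5 CPM. Library 2 stood below the other three. The cholesterol exporter Abca1 (chr4:53030787-53159895) had 43.9, 51.9, 62.2 and 44.7 CPM, highest in library 3. Abcg1, which moves sterol to high-density lipoprotein, had 10.5, 12.0, 12.3 and 11.9 CPM, lowest in library 1. Abca1 exceeded Abcg1 per kilobase 3.03-fold, between 2.63-fold and 3.56-fold, in 4 of 4 libraries. The genes of the liver X receptors, Nr1h2 at 57.5 ± 4.14 CPM and Nr1h3 at 18.5 ± 1.82 CPM (SD, n = 4), were both expressed.

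Fasn, fatty acid synthase (chr11:120805846-120824547), had 60.6, 90.4, 81.2 and 60.6 CPM. Libraries 2 and 3 stood apart from libraries 1 and 4 by more than counting error: the exact Poisson limits of 95% ran from 75.8 (library 3) to 95.5 CPM (library 2) for the former, and from 56.7 to 64.8 CPM (both library 1) for the latter. The desaturases, which put the first double bond into saturated fatty acids, followed other orders. Scd1 (chr19:44394455-44407879) had 14.7, 14.1, 19.2 and 17.8 CPM, highest in libraries 3 and 4. Scd2 (chr19:44293674-44306864) had 24.98, 28.7, 22.0 and 24.7 CPM, highest in library 2. Scd1 and Scd2 are close paralogs, and reads that did not align uniquely, 983530 to 1372277 per library, are listed apart from the gene counts. How many of those match both desaturases is not known, so their ratio is uncertain. Per kilobase Scd2 exceeded Scd1 by 1.37-fold in 4 of 4 libraries, but from only 1.03-fold in library 3 to 1.82-fold in library 2. Fasn exceeded Scd1 per kilobase by 1.97-fold, between 1.52-fold and 2.86-fold, again in 4 of 4 libraries, and by 4.41-fold where counts were not divided by length.

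Per kilobase each of the 8 gene pairs kept its direction in all 4 libraries. In the two-sided exact sign-flip permutation test each gave p = 0.13, also 0.13 after Benjamini-Hochberg adjustment over the 8 pairs. That is the smallest p that 4 libraries allow, so no pair could pass 0.05.

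**Figure D3:**
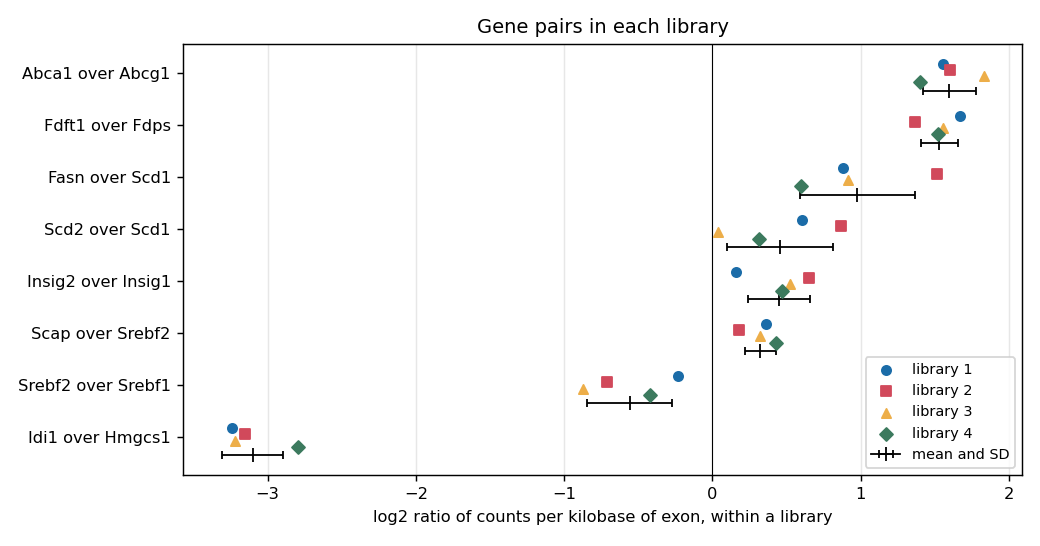
Log2 ratio of counts per kilobase of exon for each gene pair within each library; points are libraries and bars the mean with SD (n = 4). Every pair lies on 1 side of 0 in all libraries, from Abca1 over Abcg1 at 1.60 to Idi1 over Hmgcs1 at -3.10, and Scd2 over Scd1 in library 3 lies nearest to 0, at 0.04.

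Genes were then tested for a spread between libraries larger than that of genes of like abundance. The variance ratio is a gene's quasi-dispersion over the fitted trend, and a gene was called where its p, adjusted by Benjamini-Hochberg over all genes tested, lay under 0.05. Of the 27 genes tested, edgeR's quasi-likelihood fit called 0, against 0.445% of all 12358 genes tested. limma and the dispersion outliers of DESeq2 also called 0 of the 27, against 50 and 129 of all 12358 genes. At an unadjusted p under 0.05 there were 4 of 27, against 6.00% of all genes tested: Fasn, Srebf1, Mylip and Abca1. None of these 4 is an enzyme of sterol synthesis, and all 16 sterol enzymes tested had unadjusted p of 0.107 or more. The median log2 variance ratio was 0.13 for the 27, -0.57 for the 16 sterol enzymes and 1.02 for the 11 other genes, beside -0.23 for all genes tested. Without library 1 the median of the 27 was -0.49 beside -0.43 for all genes. Without libraries 2, 3 and 4 in turn it was 0.00, 0.13 and -0.18, beside -0.41, -0.40 and -0.43. The median coefficient of variation was 10.9% over the 27 and 9.59% over all genes tested.

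Fasn had the largest variance ratio of the 27, at 10.3, which ranked 199 of 12358 genes (adjusted p = 0.308, edgeR). Srebf1 followed at 8.26 (adjusted p = 0.433), Mylip at 7.78 (adjusted p = 0.462) and Abca1 at 6.11 (adjusted p = 0.598). The folds between the highest and the lowest library were 1.49 for Fasn, 1.47 for Srebf1, 1.65 for Mylip and 1.42 for Abca1. The smallest ratios were those of Cyp51 (0.0777), Msmo1 (0.0965) and Insig2 (0.127). The next ratios below Abca1 were 2.90 for Hsd17b7, 2.55 for Scd1 and 2.02 for Insig1, with edgeR adjusted p between 0.941 and 0.995.

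Single libraries carried part of this. Without library 2 the variance ratio of Mylip was 0.547 (unadjusted p = 0.597, edgeR), and without library 3 that of Abca1 was 2.01 (unadjusted p = 0.21). For Fasn and Srebf1 the unadjusted edgeR p was under 0.05 whichever library was left out, between 0.00349 and 0.0123 for Fasn and between 0.005 and 0.0397 for Srebf1. With both libraries 2 and 3 left out, which was added after seeing the data, the ratio was 0.0251 for Fasn, 1.498 for Srebf1, 0.0763 for Mylip and 0.0164 for Abca1. In libraries 1 and 4 alone, Fasn and Abca1 thus differed by less than genes of like abundance. Srebf2, at 45.4 and 37.0 CPM there, then had the largest ratio of the 27, 9.09 (adjusted p = 0.665, edgeR).

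**Figure D4:**
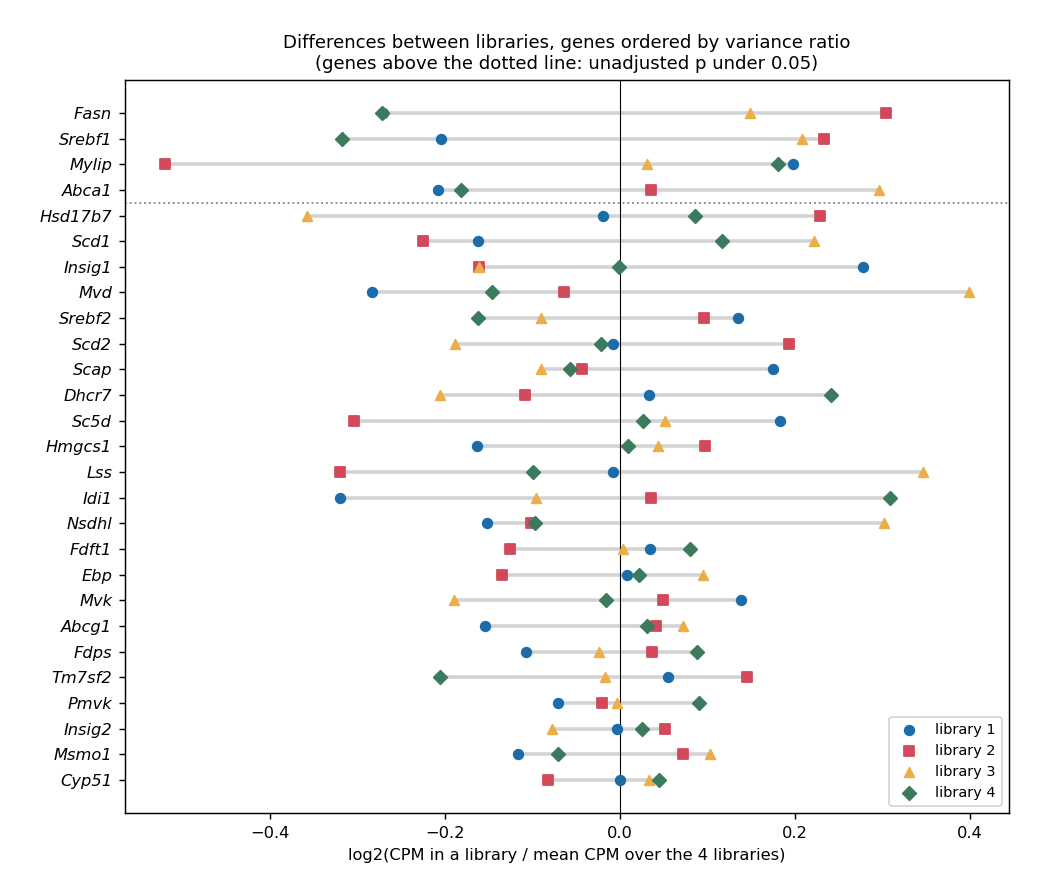
Log2 of each library's CPM over the gene's mean for the 27 genes tested, ordered by variance ratio from the largest at the top; points are libraries and the grey bar spans them. Fasn, Srebf1 and Abca1 have libraries 2 and 3 on the right and libraries 1 and 4 on the left, and Mylip has library 2 alone at the far left.

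In 7 of the 27 genes the highest values were those of libraries 2 and 3: Hmgcs1, Mvd, Msmo1, Srebf1, Abca1, Abcg1 and Fasn. The share over all genes tested was 15.6%. With TMM scaling it was 8 of 27, with Nsdhl added, against 18.3% of all genes. Some adipocyte markers had the same order. Cfd stood at 1.32, 5.24, 5.32 and 1.63 CPM, Car3 at 2.15, 4.74, 6.56 and 1.69 CPM, and Adipoq had 0, 12, 4 and 3 counts. The adipocyte list as a whole summed to 18.5, 18.9, 23.1 and 16.9 CPM, with 3 of 8 markers at a mean of 1 CPM or more, and its largest member, Pparg, ran the other way at 13.9, 6.75, 7.41 and 12.0 CPM. Retn had 0 counts in libraries 1 and 4, and Lep in libraries 1 and 2. Plin1, at 0.347, 0.647, 1.24 and 0.391 CPM, was highest in libraries 2 and 3. Cidec did not share that order, at 0.763, 0.503, 1.52 and 0.912 CPM, lowest in library 2. Macrophage markers, 7 of 7 at 1 CPM or more, summed to 266, 231, 248 and 278 CPM, lowest in library 2. Mrc1 and C1qa of that list were lowest in library 3 instead. The part of these cell types and of the sex-linked difference in the levels of Fasn, Srebf1 and Abca1 was not tested.

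**Figure D5:**
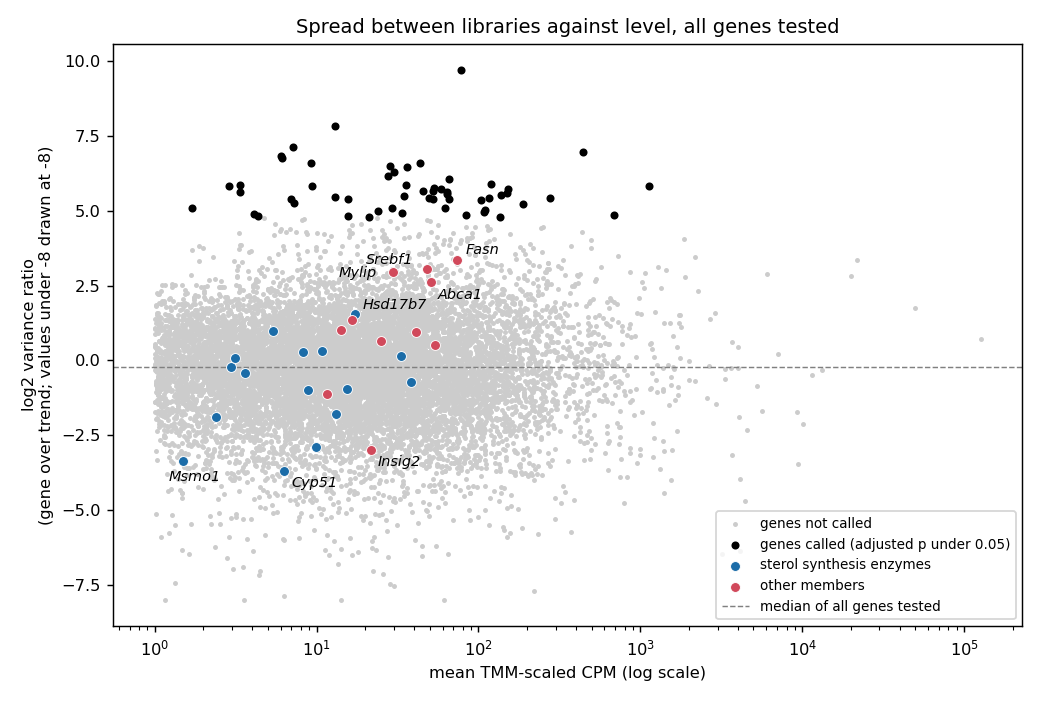
Log2 variance ratio against mean TMM-scaled CPM (log axis) for all 12358 genes tested; grey points are genes not called, black points the 55 genes called, blue the 16 sterol enzymes and red the 11 other genes of the set. Fasn, Srebf1, Mylip and Abca1 lie highest of the coloured points and below the called genes, and Cyp51 lies lowest.

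The sequences before the start sites of the genes with the widest and the narrowest spread are given here, with that of Hmgcs1, the only gene of the set whose window held the core of the sterol regulatory element. They are from RefSeq on GRCm38.p6 (mm10), where windows from 250 bases before to 50 bases after a start were present for 22 of the 28 genes. Capitals mark the letters searched on both strands: TCACNCCAC (sterol regulatory element core), CCAAT (NF-Y box) and GGGCGG (Sp1 box). Each stretch is 120 bases, read 5′ to 3′ on the gene's strand. That of Hmgcs1 (chr13:119690158-119690277, plus strand) ends 74 bases before the start, and the others end at the base before it. The stretch before the first Srebf1 start (chr11:60222582-60222701, minus strand) held no match to these letters and is not printed.
Hmgcs1: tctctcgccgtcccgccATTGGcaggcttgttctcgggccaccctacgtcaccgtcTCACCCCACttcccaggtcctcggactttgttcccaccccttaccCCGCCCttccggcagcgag
Fasn (chr11:120824548-120824667, minus strand): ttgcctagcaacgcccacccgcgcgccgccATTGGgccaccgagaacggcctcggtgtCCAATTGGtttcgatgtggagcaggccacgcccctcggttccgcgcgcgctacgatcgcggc
Srebf1, second of 3 starts listed (chr11:60220628-60220747, minus strand): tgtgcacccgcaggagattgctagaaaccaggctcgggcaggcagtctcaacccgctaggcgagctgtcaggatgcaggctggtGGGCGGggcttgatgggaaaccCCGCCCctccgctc
Srebf1, the third start (chr11:60210472-60210591, minus strand): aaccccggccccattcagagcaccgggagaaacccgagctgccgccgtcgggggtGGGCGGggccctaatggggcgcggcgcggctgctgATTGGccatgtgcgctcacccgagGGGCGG
Mylip (chr13:45389622-45389741, plus strand): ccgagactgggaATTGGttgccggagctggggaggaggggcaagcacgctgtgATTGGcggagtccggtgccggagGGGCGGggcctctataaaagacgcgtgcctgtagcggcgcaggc
Abca1 (chr4:53159896-53160015, minus strand): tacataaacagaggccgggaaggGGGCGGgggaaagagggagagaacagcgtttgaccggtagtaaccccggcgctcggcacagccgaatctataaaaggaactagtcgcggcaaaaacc
Cyp51 (chr5:4104698-4104817, minus strand): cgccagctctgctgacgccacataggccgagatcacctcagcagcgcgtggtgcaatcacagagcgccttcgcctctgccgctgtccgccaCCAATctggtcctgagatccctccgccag

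In these stretches Fasn has a CCAAT box on each strand that run into each other, after a further one upstream, whereas Abca1 has a single Sp1 box and Cyp51 a single CCAAT box. The CCAAT box was present in the windows of 20 of the 22 genes, and in those of 41.1% of all 27025 genes with a window. The Sp1 box was likewise in 20 of 22, against 38.2% of all genes. The sterol regulatory element core was in 1 of 22, against 1.44% of all genes. A match is only a match of letters, and its absence says only that these letters are not in this window.

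The wider pathway was covered by a list of 31 further genes, of which 29 were tested. edgeR called 0 of the 29 at an adjusted p under 0.05, against 0.445% of all genes tested. limma called 0 as well, against 50 of all 12358 genes. Thrsp was the 1 dispersion outlier of DESeq2 in the list, against 129 of all 12358 genes. At an unadjusted p under 0.05 edgeR had 2 of 29, Thrsp and Npc1, against 6.00% of all genes. Its median log2 variance ratio was -0.02. Thrsp, a nuclear protein linked to lipogenesis, had 31.0, 33.6, 14.4 and 27.996 CPM, lowest in library 3 (variance ratio 17.2, adjusted p = 0.119, edgeR). Fasn was not low in that library. Without library 2 Thrsp was called (adjusted p = 0.0412, edgeR), and without library 3 its variance ratio was 1.81. Npc1, which exports cholesterol from lysosomes, had 81.2, 56.7, 85.0 and 83.8 CPM, lowest in library 2 as Mylip was, with a variance ratio of 8.19 (adjusted p = 0.433, edgeR), which was 0.320 without library 2.

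The genes of highest mean CPM in that list were Acacb at 849 ± 39.4 CPM (SD, n = 4), Lrp1 at 557 ± 48.7 CPM and Vldlr at 309 ± 25.2 CPM. Acacb encodes the acetyl-CoA carboxylase whose malonyl-CoA restrains fatty acid oxidation at mitochondria, and Lrp1 and Vldlr encode lipoprotein receptors. Acaca, the carboxylase that feeds fatty acid synthesis, had 23.0 ± 2.18 CPM, or 1.35 ± 0.128 CPM per kilobase beside 88.2 ± 4.09 for Acacb, and Fasn 6.69 ± 1.37. The elongase Elovl6 was low, with 10, 14, 12 and 15 counts and a mean of 0.954 CPM, and was named after its values were seen. Mbtps1, a protease that releases SREBP in the Golgi, had 73.5 ± 2.83 CPM and its partner Mbtps2 3.68 ± 0.444 CPM, both also named after their values were seen. Of the exon bases of Mbtps2, 28.4% are shared with Yy2 on the same strand, so its counts are uncertain.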

How the data were processed

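Polyadenylated RNA of 4 hearts was sequenced as single-end libraries that do not keep strand, per the labels' protocols. Each deposited table gives whole-number read counts by gene symbol, not normalized. The submitters' processing notes name HTSeq, edgeR, DESeq, TopHat2 2.0.10, TopHat, Bowtie2 and mm10 with no roles; which annotation and counting mode were used was not stated in the sources used. The 5 rows that name no gene held 8.96 to 9.30% of listed reads and were left out. CPM were computed per 1000000 gene counts, with lengths and positions from GENCODE M21 (GRCm38). The spread test used edgeR 4.0.16 in R 4.3.3: an intercept alone, TMM factors (0.986 to 1.01), a robust prior, genes of mean TMM-scaled CPM of at least 1, each variance ratio set against an F distribution on 3 and 7.42 degrees of freedom, upper tail, with Benjamini-Hochberg adjustment over all genes tested. Gene pairs used log2 ratios with 0.5 added to each count. Alternatives included limma 3.58.1 and DESeq2 1.42.0. Poisson limits cover counting error only, since reads are not independent molecules. The members, lists and tests were chosen with earlier results of these data known. Values in every library are given for called members, the 10 of largest and 3 of smallest variance ratio and all genes of the pairs; of other pathway genes, called ones and the 3 of highest CPM are named.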

Additional observations from a re-analysis of the deposited data

Results flagged for a closer look

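Of 43 values examined (28 gene levels, 7 sums and 8 pair ratios), 3 had 1 library far from the other 3, where about 1 in 20 would be expected by chance. Scap stood at 60.5 CPM in library 1, against 50.4 to 52.0 CPM in the others. Nsdhl stood at 4.47 CPM in library 3, against 3.26 to 3.39 CPM, but from only 47 counts: its exact Poisson limits of 95%, 3.28 to 5.94 CPM, overlapped those of library 1, 2.40 to 4.34 CPM, library 2, 2.48 to 4.49 CPM, and library 4, 2.53 to 4.44 CPM. The sum of the squalene to lanosterol enzymes was 38.1 CPM in library 2, against 43.4 to 44.0 CPM.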

How the results depend on the processing

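No paired analysis was possible because the libraries form 1 group. Leaving Rn45s out of the totals raised all CPM: the early arm summed to 84.3 CPM, squalene to lanosterol to 48.5, lanosterol to cholesterol to 75.2, the SREBP system to 205, receptor control with efflux to 105, the fatty acid genes to 132 and the 17 sterol enzymes to 208 CPM. Of the 28 single levels, 16 then moved by more than their SD. TMM or DESeq2 size factors, or leaving out any 1 library, moved none of the 28 levels or 7 sums by more than 1 SD; TMM scaling of CPM was chosen after seeing the data. With no filter on low counts edgeR called 1 of 28 members, Fasn (adjusted p = 0.0223), and 1 of the 31 pathway genes; DESeq2's outliers held 1 pathway gene. Over all genes the 55 calls became 258 with no filter, where 17447 genes were tested. They became 50 with limma, 129 as DESeq2 outliers, 10 under the non-robust prior and 6 with libraries 1 and 4 only. With each library left out in turn the calls were 0 for members and 0 to 1 for the pathway list, beside 39 to 69 over all genes. A prior that was not robust, total counts, size factors of DESeq2 or leaving out Rn45s left 0 members called by edgeR, each with 4 at an unadjusted p under 0.05, where all genes had 608, 756, 739 and 755; libraries 1 and 4 alone left 0, with 2, beside 629. The 8 mean pair ratios kept their sign without division by length, with the longest transcript, with 1 as pseudocount and without each library, though per count Srebf2 exceeded Srebf1 in library 1.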
